A study of Mus musculus with 472 samples.

Results

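The genes described here are 10 genes of the neuronal microtubule: the beta-tubulins Tubb3, Tubb2a, Tubb2b and Tubb4a, the alpha-tubulin Tuba1a, the microtubule-associated proteins Mapt, Map1b and Map2, and the stathmins Stmn2 and Stmn3. They were chosen by symbol out of the 55450 genes of the deposited table, and all 10 symbols were found there, each on 1 column. They were measured in single retinal ganglion cells, the neurons whose axons form the optic nerve, taken from C57BL/6J mice that were 7 to 9 weeks old. The protocols in the labels describe patching of single cells in the whole-mounted retina, recording under light stimuli, withdrawal of the cell content into the pipette and amplification of its RNA with Smart-seq2, a full-length method without molecular identifiers. There is 1 group with no treatment, genotype or allele beyond the strain. The labels name no animals, so the whole set counts as 1 sample: differences between cells are described and none was tested. Numbers of cells are mostly given as percent of all cells, with exact 95% intervals.

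Microtubules are hollow polymers of alpha-tubulin and beta-tubulin dimers, and they give an axon its tracks for transport. Each subunit is encoded by a family of near-identical genes, the isotypes, whose products differ mostly in an acidic tail at the carboxyl end. Structural microtubule-associated proteins (MAPs) bind the polymer and hold it together, and stathmins bind free dimers and favour disassembly. In the retina, antibodies to the Tubb3 product are a customary stain for ganglion cells, and microtubules in the long axons of these cells are a customary subject in studies of optic nerve injury.

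The coding ends of the 4 beta-tubulins are shown because they set the isotypes apart and bear on how well reads of each can be counted. Each is the last 60 coding bases of the gene on mm10, stop codon included, in the last coding exon, written 5′ to 3′ on the gene's own strand. Capitals mark bases unlike Tubb2a at the same place counted back from the stop codon. They lie at chr8:123421623-123421682 on the plus strand for Tubb3, and on the minus strand at chr13:34074468-34074527 for Tubb2a, chr13:34127471-34127530 for Tubb2b and chr17:57080690-57080749 for Tubb4a.
Tubb3: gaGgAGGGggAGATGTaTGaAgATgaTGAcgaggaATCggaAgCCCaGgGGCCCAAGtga
Tubb2a: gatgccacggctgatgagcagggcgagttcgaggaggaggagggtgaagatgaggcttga
Tubb2b: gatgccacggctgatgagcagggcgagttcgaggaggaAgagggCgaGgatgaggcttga
Tubb4a: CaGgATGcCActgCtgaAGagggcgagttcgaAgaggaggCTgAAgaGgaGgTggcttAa
Tubb3 differed from Tubb2a at 35 of these 60 bases, Tubb4a at 19 and Tubb2b at 3. Over the whole coding sequence, Tubb2b was 96.5% identical to Tubb2a (1291 of 1338 aligned bases), Tubb4a 84.1% and Tubb3 83.5%. Of the 2033 windows of 150 bases in the Tubb2b transcript, the labelled read length, 20.1% also occur in Tubb2a, so reads from those windows cannot be told apart; Tubb3 and Tubb4a shared 0 windows with Tubb2a. Tuba1a shares 16.9% of its windows with Tuba1b and 26.8% with Tuba1c, and Stmn2 and Stmn3 share 0. No source used here states how the counting treated shared reads, so the levels of Tubb2a against Tubb2b, and of Tuba1a against Tuba1b and Tuba1c, carry that uncertainty.

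The RefSeq promoter table on GRCm38.p6 held 7 of the 10 genes, and Tubb2b, Mapt and Stmn2 were not matched. Those of Tubb3 (chr8:123411303-123411602, plus strand), Tuba1a (chr15:98953452-98953751, minus strand) and Tubb2a (chr13:34077959-34078258, minus strand) are shown as examples of genes whose levels were correlated over cells. Each runs from 250 bases before to 50 bases after the start, and capitals mark every match, on either strand, to the motifs TATAAA or CCAAT or GGGCGG.
Tubb3: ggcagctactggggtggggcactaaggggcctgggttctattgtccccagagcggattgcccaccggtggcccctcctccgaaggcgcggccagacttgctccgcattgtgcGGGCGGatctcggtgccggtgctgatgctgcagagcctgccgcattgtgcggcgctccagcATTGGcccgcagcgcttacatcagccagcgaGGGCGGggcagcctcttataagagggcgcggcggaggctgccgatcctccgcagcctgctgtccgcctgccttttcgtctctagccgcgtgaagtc
Tuba1a: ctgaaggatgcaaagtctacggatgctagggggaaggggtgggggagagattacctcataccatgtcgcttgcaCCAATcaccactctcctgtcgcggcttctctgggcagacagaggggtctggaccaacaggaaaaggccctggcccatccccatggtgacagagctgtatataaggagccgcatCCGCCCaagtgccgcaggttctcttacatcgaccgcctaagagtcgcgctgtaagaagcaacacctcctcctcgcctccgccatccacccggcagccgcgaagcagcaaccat
Tubb2a: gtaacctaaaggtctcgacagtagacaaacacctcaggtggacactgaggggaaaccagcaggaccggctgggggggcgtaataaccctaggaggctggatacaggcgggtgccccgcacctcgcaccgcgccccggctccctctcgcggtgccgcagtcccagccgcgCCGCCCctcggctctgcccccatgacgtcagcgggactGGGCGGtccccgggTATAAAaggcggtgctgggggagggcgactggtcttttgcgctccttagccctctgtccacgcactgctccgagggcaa
GGGCGG was found in 5 of the 7 promoters (Map1b, Map2, Tuba1a, Tubb2a and Tubb3), against 35.7% of the 32851 promoters in the table. CCAAT was found in 2 (Tuba1a and Tubb3), against 37.4%, TATAAA in 2 (Map1b and Tubb2a), against 13.6%, and CACGTG, searched as well, in 0 of 7, against 7.15%. A match is a match of letters in these windows and says nothing of binding.

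The cells were deeply but unevenly sequenced. Gene counts per cell ran from 58907 to 13004880 with a median of 5184792.5, and positive genes, at 10 counts or more per 1000000 gene counts (CPM), reached 8937 with a median of 5554.5. Library names sort the cells into 5 groups, called runs here. Groups B and C rest on an order number alone, and whether the cells of each were sequenced together is unknown. Run A is the largest, run B holds 98 cells, run C 62, run D 59 and run E 19. Run D had a median of 3024 positive genes, against 5253.5 to 6563 in the other runs. Its median gene counts were not the lowest, at 5369033 against 4043742 to 6123968.5 in the other runs. In all, 73 cells had fewer than 3000 positive genes, and the rest are called deep cells below. The name refers to the number of positive genes and not to gene counts. The label of the cells held: of 12 ganglion cell markers, 12 were positive in over 50% of cells, with Nefl in 98.5% and Slc17a6 in 92.2%. Some rod RNA was carried over too, with Gnat1 positive in 66.9% of cells and Sag in 60.8%, while the microglial genes C1qa, C1qb, Csf1r, Cx3cr1 and Tmem119 were positive in 1.06% to 6.14%.

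Nearly every patched cell carried most of the 10 genes. The median cell was positive for 9. Exactly 9 were positive in 52.3% of cells, exactly 8 in 18.01% and all 10 in 80 cells (16.9%, exact 95% interval 13.7% to 20.6%). All 9 other than Tubb2b were positive together in 65.7% of cells (61.2% to 69.96%), and all 8 other than Tubb2b and Map2 in 80.9% (77.1% to 84.4%). In deep cells those 8 were positive together in 91.7% (88.6% to 94.2%). Cells positive for 5 or fewer numbered 23, of which 22 had fewer than 3000 positive genes and 16 were of run D. For comparison, 50% or more of cells were positive for 9 of the 10 genes here, and for 4305 (19.2%) of the 22436 genes seen at 10 CPM in some cell. The 10 genes together took a median of 8088 CPM, from 22.2 to 18655, with quartiles of 5845 and 10605.

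**Figure D1:**
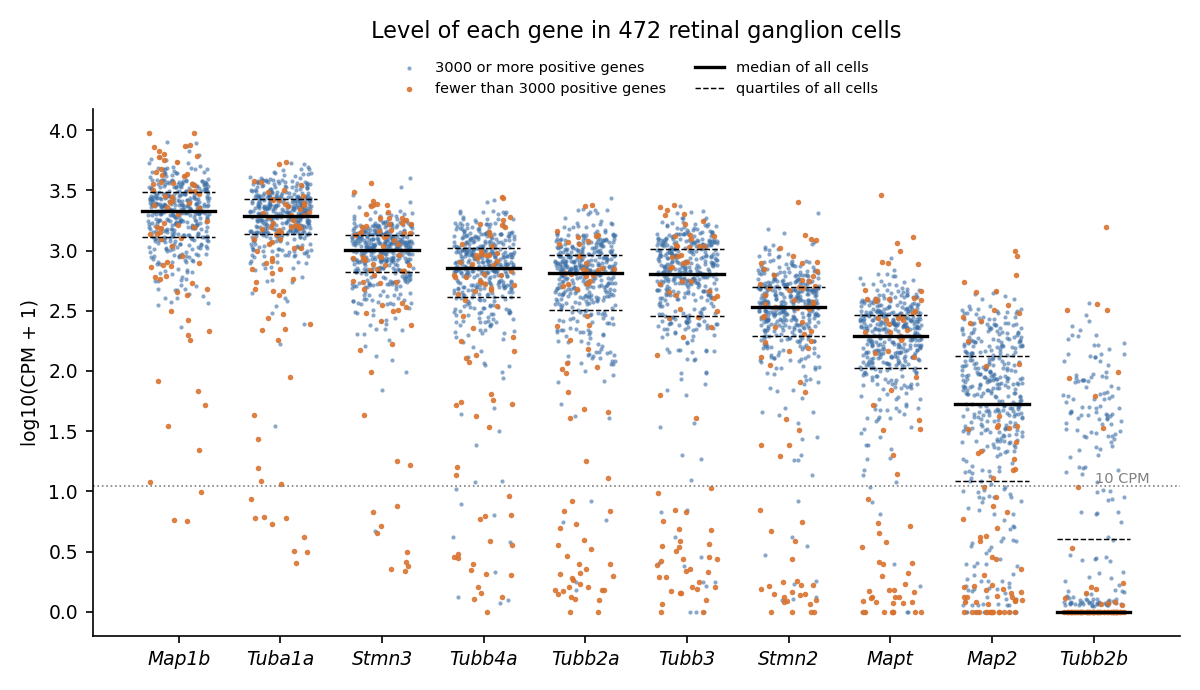
Level of each gene in each cell as log10(CPM + 1), genes in order of median CPM and not scaled for length; solid lines are medians, dashed lines quartiles, and the dotted line marks 10 CPM. The low values of most genes come largely from cells with fewer than 3000 positive genes, while Map2 and Tubb2b spread down to 0 in deep cells as well.

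Tubb3 (ENSMUSG00000062380, chr8:123411424-123422015, plus strand), the neuron-enriched beta-tubulin, was positive in 90.5% of cells (87.5% to 92.96%). Its level ran from 0 to 2368 CPM with a median of 635 CPM and quartiles of 284.5 and 1031 CPM. Run D had the lowest run median, 191.04 CPM, followed by 474 CPM in E, 524 CPM in B, 541 CPM in C and 752 CPM in A, and the share of positive cells was 62.7% in D against 91.8% to 95.7% in the other runs. Of the 45 cells below 10 CPM, 12 had at least 3000 positive genes, and they came from all 5 runs. Those 12 cells were positive for Tuba1a, Stmn3 and Tubb2a in 12 of 12, for Pou4f1, a ganglion cell transcription factor, in 11, and for Slc17a6, the vesicular glutamate transporter, in 10. Of these 12, 11 had at least 6 of the 12 ganglion cell markers. Of the 12 cells, 2 had 3 or more of 6 amacrine markers, which 28.8% of all deep cells had.

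Tubb2a (ENSMUSG00000058672, chr13:34074274-34078007, minus strand), a class II beta-tubulin, was positive in 92.6% of cells (89.8% to 94.8%), at 0 to 2718 CPM with a median of 645 CPM. Tubb4a (ENSMUSG00000062591, chr17:57080066-57087782, minus strand), a beta-tubulin known from brain and from myelin disease, was positive in 94.3% (91.8% to 96.2%), at 0 to 2794 CPM with a median of 718 CPM. The run median of Tubb2a was lowest in run D (322.9 CPM) and that of Tubb4a in run E (498 CPM), and both were highest in run C, at 822 CPM for Tubb2a and 876 CPM for Tubb4a. Tubb2b was unlike the other beta-tubulins and is described on its own below.

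Beta-tubulin counts were spread over 5 isotypes. Summed over 8 beta-tubulin genes, the family had a median of 3143 CPM. Of this, the median share was 23.01% for Tubb4a, 20.1% for Tubb3, 19.1% for Tubb2a, 17.7% for Tubb5, 14.4% for Tubb4b and 0% for Tubb2b, Tubb6 and Tubb1, over cells whose sum reached 10 CPM. Tubb4a was the leading isotype in 30.7% of these cells, Tubb3 in 26.4%, Tubb2a in 20.04%, Tubb5 in 16.6%, Tubb4b in 5.76% and Tubb2b in 2 cells. Counts per length put the top isotypes in another order, with median shares of 24.97% for Tubb2a, 22.6% for Tubb3 and 21.5% for Tubb4a. The share of Tubb3 was highest in run A, at 21.8%, and lowest in run D, at 14.5%, with 16.5% in C, 16.9% in B and 18.98% in E; without run A it was 16.6%.

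**Figure D2:**
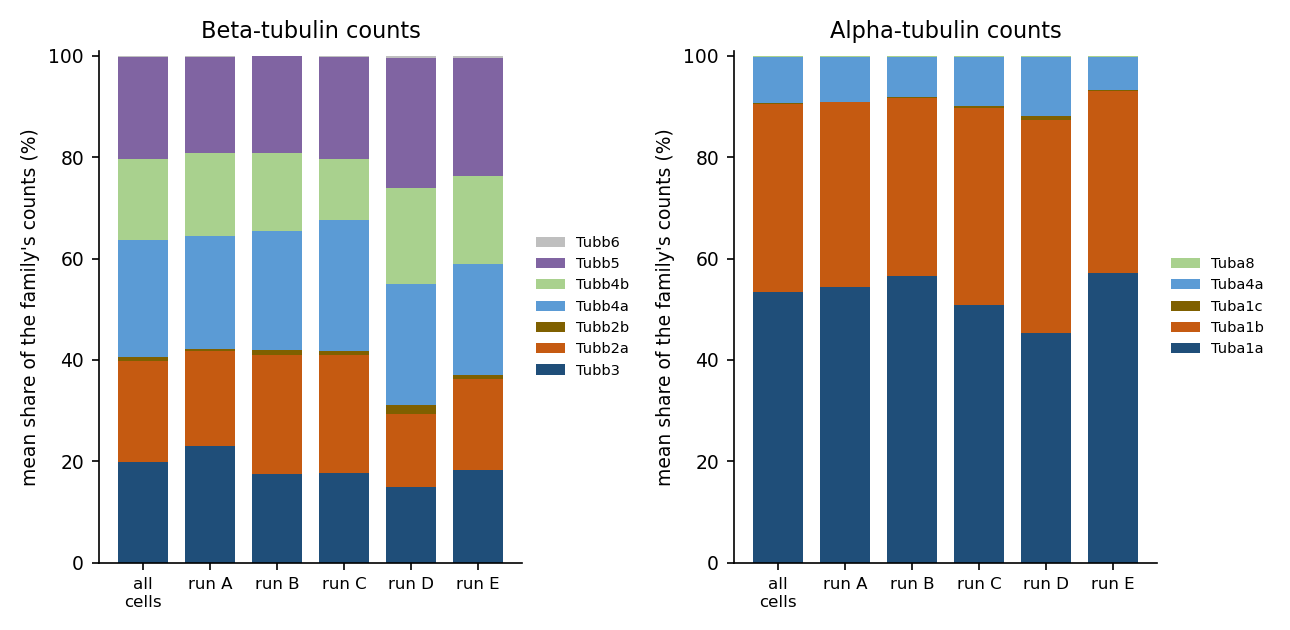
Mean share of each isotype in the beta-tubulin counts (left) and the alpha-tubulin counts (right), over all cells and in each run, stacked to 100%; isotypes with a mean share of 0.1% or less are left out. In every run 5 beta-tubulins share the counts, while Tuba1a and Tuba1b hold most of the alpha-tubulin counts.

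Alpha-tubulin was, by contrast, mostly 1 gene with 1 partner. Tuba1a (ENSMUSG00000072235, chr15:98949837-98953703, minus strand), the main alpha-tubulin of postmitotic neurons, was positive in 98.1% of cells (96.4% to 99.1%), at 1.56 to 5428 CPM with a median of 1950 CPM. It held a median of 54.1% of alpha-tubulin counts, Tuba1b 36.4% and Tuba4a 8.01%, and it led in 80.5% of cells against 18.7% for Tuba1b. The share of Tuba1a ran from 47.9% in run D to 56.7% in run E. It was below 10 CPM in 0 deep cells, and its SD of log2(CPM + 1) over them, 0.78, was the lowest of the 10 genes. Tuba1c, 97.1% identical to Tuba1a over the coding sequence, was positive in 4.24% of cells.

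Tubb2b (ENSMUSG00000045136, chr13:34126748-34130466, minus strand), the class II beta-tubulin best known from cortical development, was present in a minority. It was positive in 22.2% of cells (18.6% to 26.3%), above 0 but below 10 CPM in 84 cells, and at 0 in the rest. In its positive cells the median was 57.5 CPM, with quartiles of 35.3 and 97.7 CPM, and 26 cells had at least 100 CPM, up to 1566 CPM. The lowest positive cell had 11.002 CPM and the highest negative cell 9.83 CPM. Tubb2a was positive in all but 5 of the Tubb2b-positive cells, and these 5 were the cells with more Tubb2b than Tubb2a. None of the 5 was a deep cell: they had 1459 to 2421 positive genes. The cell with 1566 CPM was among them. In 54.7% of all cells Tubb2b was at 0 although Tubb2a was positive. By run, 57.9% of cells were positive in E, 25.8% in C, 22.4% in B, 20.9% in A and 11.9% in D.

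**Figure D3:**
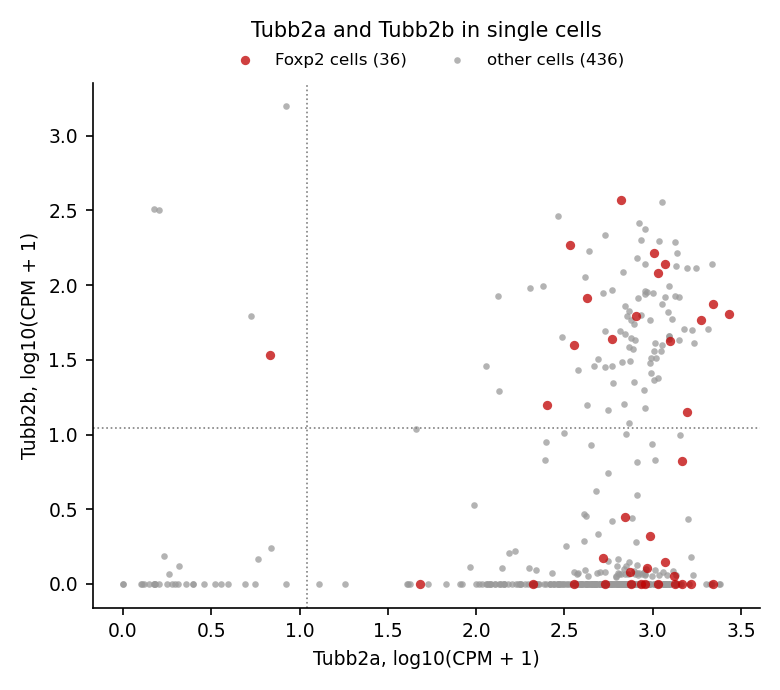
Tubb2b (vertical axis) against Tubb2a (horizontal axis) in single cells, both as log10(CPM + 1), with the 36 cells positive for Foxp2 in red and the other cells in grey; dotted lines mark 10 CPM. Most cells lie along the bottom with Tubb2a alone, and 16 of the 36 Foxp2 cells lie above the Tubb2b line.

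Among the MAPs, Map1b was the most and Map2 the least widespread. Map1b (ENSMUSG00000052727, chr13:99421446-99516540, minus strand), a large MAP of growing and adult axons, was positive in all but 3 cells (99.4%, 98.2% to 99.9%), at 4.66 to 9472 CPM with a median of 2126 CPM. In run D its median, 2023 CPM, stood within the 1636 to 2460 CPM of the other runs, although every other gene here except Stmn3 and Tubb2b had its lowest or next to lowest run median there. Mapt (ENSMUSG00000018411, chr11:104231390-104332090, plus strand), which encodes tau, the MAP of axons, was positive in 91.1% (88.2% to 93.5%), at 0 to 2919 CPM with a median of 193.4 CPM. Map2 (ENSMUSG00000015222, chr1:66175273-66442583, plus strand), the MAP of dendrites and cell bodies, was positive in 75.4% (71.3% to 79.2%), at 0 to 996 CPM with a median of 51.9 CPM. Map2 was below 10 CPM in 71 deep cells, against 9 for Mapt and 0 for Map1b. Its 10th and 90th percentiles in those cells were 1.71 and 226.6 CPM, and its SD of log2(CPM + 1) was 2.24, against 1.39 for Mapt and 0.85 for Map1b.

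Both stathmins were widespread. Stmn3 (ENSMUSG00000027581, chr2:181306459-181314500, minus strand) was positive in 97.9% of cells (96.1% to 98.98%), at 1.19 to 3980 CPM with a median of 1007 CPM. Stmn2 (ENSMUSG00000027500, chr3:8509360-8561606, plus strand), also known as SCG10 and as a marker of axon growth and injury, was positive in 93.01% (90.3% to 95.1%), at 0 to 2548 CPM with a median of 336.6 CPM. Stmn2 was positive in 67.8% of run D cells against 92.9% to 100% in the other runs, and Stmn3 in 88.1% against 97.96% to 100%.

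Levels can be ranked between genes only per length. By median CPM per kb of the joined annotated exons, the order was Tuba1a (1082), Stmn3 (886), Tubb2a (400.9), Tubb3 (339.7), Tubb4a (322.3), Map1b (134.2), Stmn2 (60.1), Mapt (25.7), Map2 (3.16) and Tubb2b (0). The neighbours Tubb2a and Tubb3 were close, Tubb2a being higher in 55.5% of cells (50.9% to 60.1%). Tubb3 and Tubb4a were close too, Tubb3 being higher in 53.2% (48.6% to 57.8%). The order within these pairs was not tested. The other 7 neighbour pairs kept their order in 69.7% to 88.98% of cells. With the longest annotated transcript in place of the joined exons, 4 values moved, Map1b to 180, Stmn2 to 98.6, Mapt to 36.8 and Map2 to 8.29 CPM per kb, and the order did not change.

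The levels of most of the genes were correlated over cells, and those of Map2 were not. Over deep cells, the highest Pearson r of log2(CPM + 1) was 0.60, between Stmn2 and Stmn3, followed by 0.53 for Tubb3 with Stmn3 and 0.50 for Tuba1a with Stmn3. The r of Map2 with the other 9 genes ran from -0.13, with Tubb4a, to 0.07, with Map1b, and that of Tubb2b from -0.08 to 0.25. Over all cells the r of Map2 ran from 0.01 to 0.28. The median over the 45 pairs was 0.29 in deep cells and 0.40 over all cells, and over all cells it was 0.23 when 2 ribosomal RNA loci, which took up to 97.7% of a cell's counts, were left out of the total. These r values are descriptions: all genes of a cell share its library and depth, and over all cells the r of a gene with the number of positive genes ran from 0.18 for Tubb2b to 0.57 for Tubb2a.

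**Figure D4:**
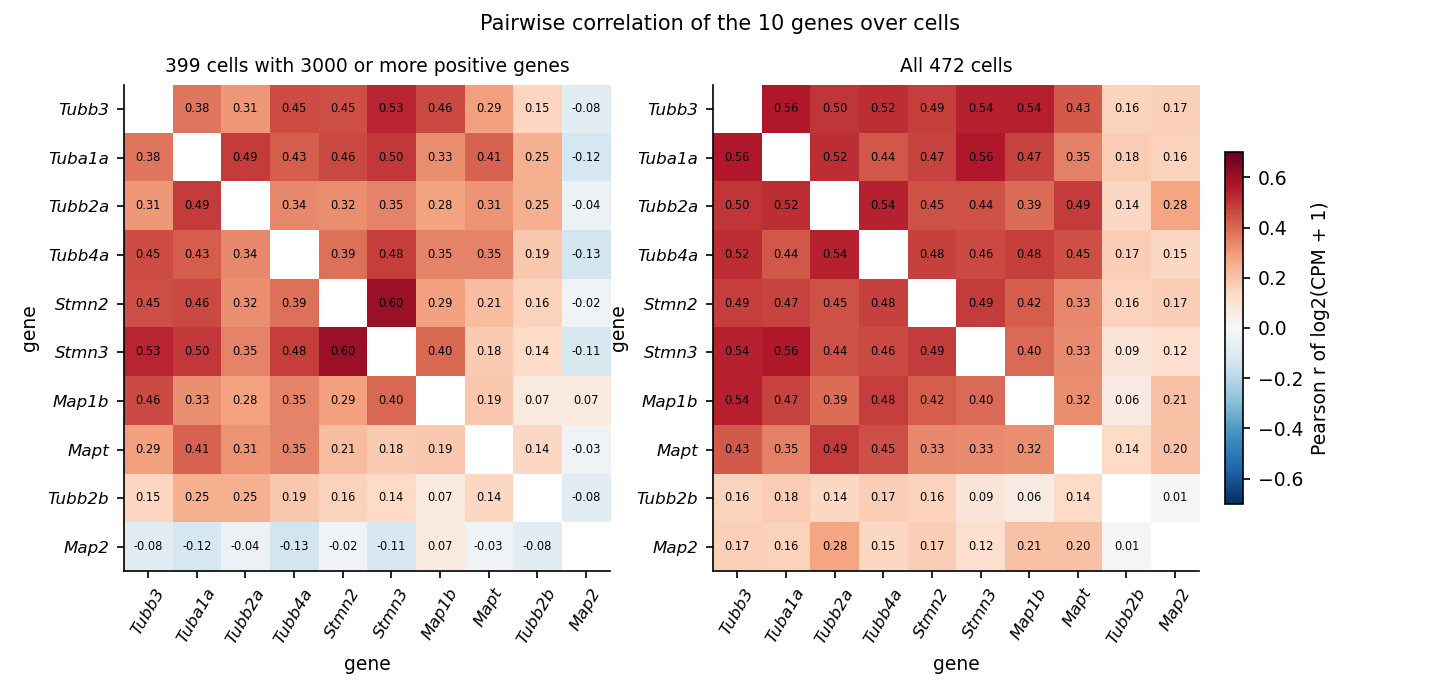
Pearson r of log2(CPM + 1) for each pair of the 10 genes, over deep cells (3000 or more positive genes, left) and over all cells (right). The row of Map2 is near 0 or below it on the left and runs from 0.01 to 0.28 on the right.

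Outside the 10 genes, Snap25 was most often the gene most alike. Likeness was the r after run means were subtracted, over deep cells, among 4296 genes positive in 50% or more of cells. Snap25, which encodes a protein of the vesicle release machinery, came first for Tuba1a (0.64), Tubb2a (0.53), Tubb4a (0.56), Map1b (0.53) and Stmn3 (0.68), and the next for Stmn2 (0.55). For the mean of the 10 genes the leaders were Snap25 (0.77), Zwint (0.72) and the chaperone Hsp90ab1 (0.68), against a median over all genes of 0.19. Tubb3 was most like Slc25a4, the mitochondrial ADP and ATP carrier (0.61), the G protein gene Gnas (0.58) and Tuba1b (0.58). Zwint led for Stmn2 (0.57), and Ndn for Mapt (0.42). Tubb4a also had Tuba1b (0.56) and the neurofilament gene Nefl (0.54), and Tubb2a had Dpysl2, which encodes a tubulin-binding protein of axons (0.48), and the calmodulin gene Calm2 (0.48). The further leaders were Ppia (0.63) and Ywhab (0.62) for Tuba1a, Hspa8 (0.52) and the creatine kinase gene Ckb (0.51) for Map1b, Hsp90ab1 (0.40) and Actb (0.38) for Mapt, Ppia (0.55) for Stmn2, and Zwint (0.66) and Snrpn (0.65) for Stmn3. Those for Map2 were the ankyrin gene Ank2, Epb41l2 and Kmt2c, at 0.28, 0.28 and 0.26, and those for Tubb2b were Amer2, Kctd8 and Dnajc6, at 0.26, 0.26 and 0.25: both sets are weak.

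The 10 genes were then set between cells that carry markers of a ganglion cell class and the other cells. The classes were cells positive for Spp1 and Kcng4, markers of alpha cells (22.5% of cells), for Col25a1 and Cdh6, markers of direction-selective cells (50), for Opn4 or Eomes, markers of melanopsin cells (75), for Tbr1 (79) or Foxp2 (36), and cells without Pou4f1 (87). The difference is the mean log2(CPM + 1) of the class minus that of the other cells, and 1 or more in size counts as past 2-fold. With 1 sample no test was possible, and a class can differ through any property its cells share. The share of all genes past 2-fold is given over all cells and, for some classes, deep cells. It is not given with a run left out or for the mean of the differences within runs.

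In Spp1 and Kcng4 cells, 1 of the 10 genes was past 2-fold, against 15.3% of 11149 genes positive in 10% or more of cells. Tubb3 had a median of 909 CPM in these cells (quartiles 602 and 1236), against 552 CPM in the other cells (248.8 and 918), a difference of 1.396. It was positive in 99.1% of class cells (94.9% to 99.98%) and 87.98% of the others (84.2% to 91.1%). The difference was positive in 5 of 5 runs, from 0.85 in run A to 3.01 in run D, with 2 to 82 class cells a run. Class cells also had more positive genes, a median of 6462.5 against 5365, and in deep cells the difference was 0.76, so that 0 of the 10 genes were past 2-fold, against 6.2% of genes. The next largest differences were 0.91 for Map2 and 0.84 for Map1b, and Map2 was past 2-fold without run A or without run C, at 1.05 in each case. By the mean of the differences within runs, Tubb3 (1.53), Map2 (1.12), Tubb2a (1.09) and Stmn2 (1.05) were past 2-fold. That mean weighs run C, with 2 class cells, like run A, with 82, and the share of all genes past 2-fold by it is not given. Müller glia markers were higher in class cells too, with 3 or more of 8 positive in 96.2% against 74.6% of cells and a summed level of 199.5 to 9018 CPM (median 1106) against 3.57 to 48248 CPM (median 942). The summed level of the 6 amacrine markers was 0 to 2025 CPM (median 97.3) against 0 to 2836 CPM (median 51.4), and that of 7 rod markers (Gnat1, Sag, Pde6a, Pde6b, Cnga1, Nrl and Prph2) had a median of 347.4 CPM against 214.5 CPM. The share of cells with 3 or more amacrine markers was 24.5% against 24.9%. Bipolar markers were lower in class cells, at a median summed level of 55.4 CPM against 70.3 CPM. In cells with fewer than 3 amacrine markers, which can still hold some amacrine RNA, the Tubb3 difference was 1.69 and that of Map2 1.13. The part of the amacrine, Müller glia and rod markers in the result was not tested. Tubb2b was lower in share, at 15.1% (8.88% to 23.4%) of class cells against 24.3% (20.01% to 29.05%) of the others.

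In Foxp2 cells, 1 of the 10 genes was past 2-fold, against 4.99% of genes, and that gene was Tubb2b. It was positive in 16 of 36 Foxp2 cells (44.4%, 27.9% to 61.9%), against 20.4% of the other cells (16.7% to 24.5%), a difference of 1.51. In deep cells it was 1.63, and 1 of the 10 genes was again past 2-fold, against 5.21% of genes. By run, 5 of 10 Foxp2 cells were positive against 19.6% of the others in A. The counts were 4 of 13 against 18 of 85 in B, 5 of 7 against 11 of 55 in C, 0 of 3 against 7 of 56 in D, and 2 of 3 against 9 of 16 in E. The share positive for Tubb2b was higher in Foxp2 cells in 4 of 5 runs, and the mean of the run differences was 1.16. With a pseudocount of 10 CPM in place of 1 CPM the difference was 0.73. Without run A, Tubb3 (1.17) and Tubb2a (1.06) were past 2-fold in Foxp2 cells as well. Tubb2a, its close relative, had a median of 916 CPM in Foxp2 cells and 628 CPM in the others, a difference of 0.97, which was 1.07 without run B and 1.23 without run E. Amacrine markers were also higher there: 36.1% of Foxp2 cells had 3 or more of 6, against 23.9% of the others, 6 of 6 were positive in some cell of each group, and the summed level ran from 0 to 1489 CPM (median 162.9) against 0 to 2836 CPM (median 62.7). In cells with fewer than 3 amacrine markers the Tubb2b difference was 1.51, but such cells can still hold some amacrine RNA. Over all cells, Tubb2b was positive in 29.1% of those with 3 or more amacrine markers and 20% of the others. The summed level of the 7 bipolar markers was higher too, at a median of 135.7 CPM against 63.1 CPM, as was that of 7 rod markers, at 530.8 CPM against 228.5 CPM (3 or more positive in 63.9% against 50.5% of cells). The part of the amacrine, bipolar and rod markers in the result was not tested. The 10 genes had a median difference of 0.50, against 0.11 over the 11149 genes positive in 10% or more of cells. Most of the 10 genes are widespread, and no value for equally widespread genes is given. The same medians were 0.62 against 0.51 in Spp1 and Kcng4 cells and 0.30 against 0.38 in Col25a1 and Cdh6 cells. They were 0.28 against 0.25 in Opn4 or Eomes cells, 0.44 against 0.42 in Tbr1 cells and -1.24 against -0.77 without Pou4f1.

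In cells without Pou4f1, 7 of the 10 genes were past 2-fold, all lower, against 33.5% of genes past 2-fold in either direction and 33.5% past 2-fold lower. Among genes positive in 50% or more of cells the share was 67.1% (2889 of 4305). Tubb3 had a median of 273.99 CPM in these cells and 660 CPM in the others, a difference of -2.06. The other 6 were Tubb2a (-1.74), Mapt (-1.44), Tuba1a (-1.34), Tubb4a (-1.25), Stmn2 (-1.23) and Stmn3 (-1.14), and Map1b was at -0.87. These cells had fewer positive genes, a median of 4137 against 5773, and 24 of the 87 were of run D, where the Tubb3 difference was -4.19. In deep cells 0 of the 10 genes were past 2-fold, against 5.91% of genes, with differences from -0.67 to -0.19 and -0.32 for Tubb3. Without run D, Mapt was the only one of the 10 past 2-fold, at -1.08, and by the mean of the differences within runs Tubb3 (-1.14) and Tubb2a (-1.02) were the only ones. Amacrine markers were lower in these cells, with a median summed level of 29.7 CPM against 70.3 CPM and 3 or more positive in 22.99% against 25.2% of cells; their part in the result was not tested.

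In the remaining classes, 0 of the 10 genes were past 2-fold: Col25a1 and Cdh6 cells, against 10.5% of genes, Opn4 or Eomes cells, against 2.22%, and Tbr1 cells, against 9.3%. The largest differences were 0.97 for Map2 in Opn4 or Eomes cells (medians of 68.6 CPM there and 49.99 CPM in the other cells) and 0.86 for Tubb2a in Tbr1 cells. Map2 in Opn4 or Eomes cells lay at the threshold, at 1.01 without run C or E and 1.14 without run B. By the mean of the differences within runs, Map2 (1.18) was past 2-fold in Opn4 or Eomes cells. By the same mean, Tubb3 (1.15) and Tubb2a (1.14) were past it in Tbr1 cells. Without run A, Map2 (1.32) and Tubb4a (1.10) were past 2-fold in Opn4 or Eomes cells. Tubb3 (1.58), Tubb2a (1.27) and Tubb4a (1.08) were so in Tbr1 cells, and the share of all genes without run A is not given. Tubb3 was lower in Col25a1 and Cdh6 cells, at a median of 454.9 CPM against 660 CPM, a difference of -0.31, which was -0.56 in deep cells.

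**Figure D5:**
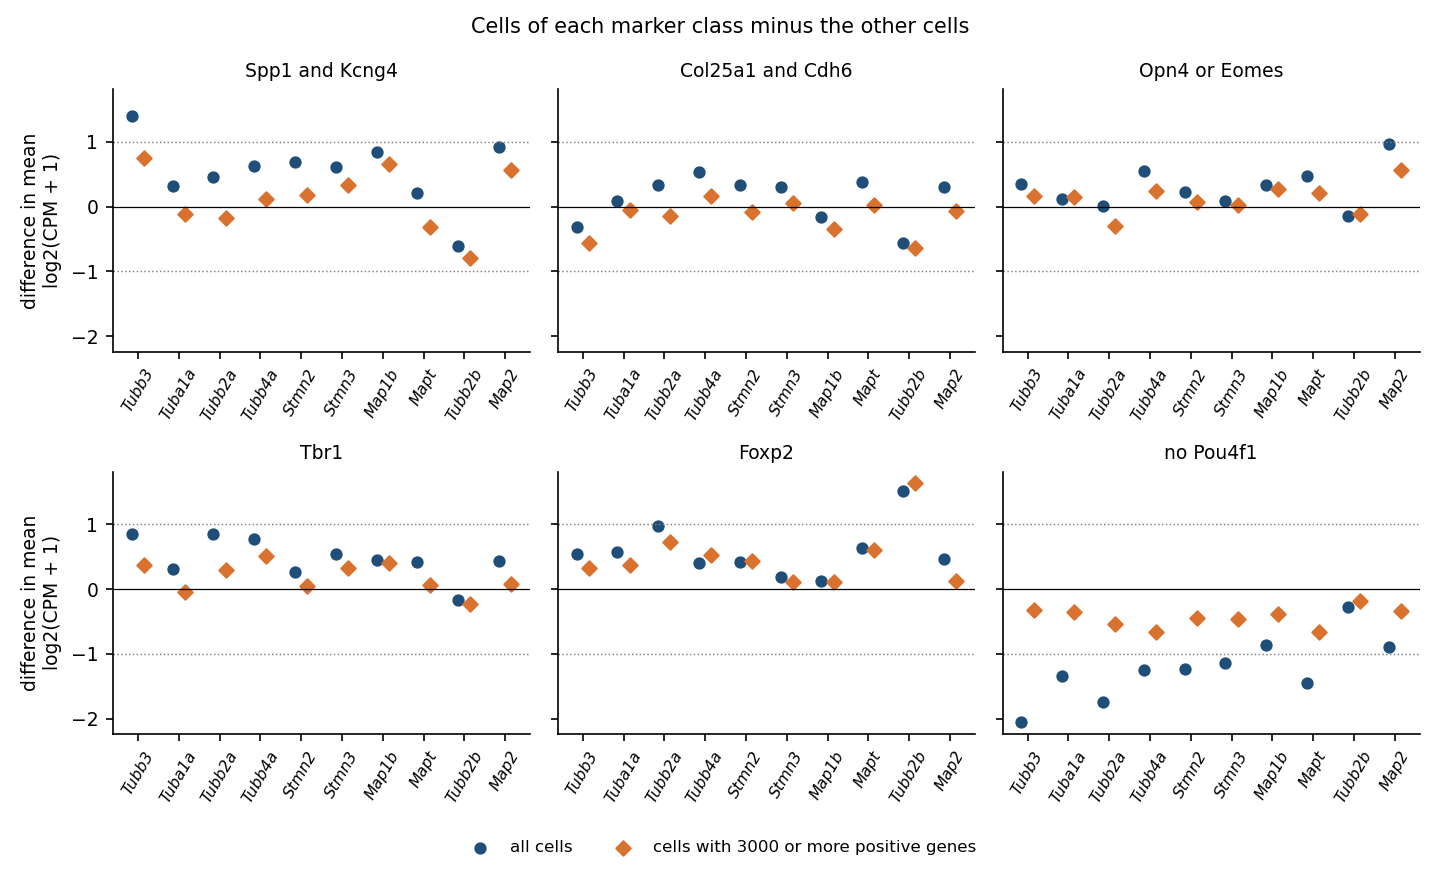
Difference in mean log2(CPM + 1), cells of each class minus the other cells, for the 10 genes, over all cells (blue circles) and over cells with 3000 or more positive genes (orange diamonds); dotted lines mark 2-fold. Tubb2b in Foxp2 cells is past 2-fold in both, while the 7 genes past 2-fold in cells without Pou4f1 lie within the lines in the deeper cells.

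In the rest of the microtubule machinery, the share of positive cells ran from 0% to 97.9%. The 10 genes and these lists were chosen with earlier results known, so the lists are described and not compared with the 10 genes. Of 15 other tubulins, 6 were positive in 50% or more of cells, led by Tuba1b (97.9%), Tubb5 (97.03%), Tubb4b (93.2%) and Tuba4a (82.6%). Tuba3a, Tuba3b, Tubal3 and Tubb1 were positive in 0 cells, and 3 counts of the total, the limit used here for a count of 0, would make 0.636% (the exact 95% interval ends at 0.779%). Of the other stathmins, Stmn1 was positive in 93.4% and Stmn4 in 62.7%. Of 17 other structural MAPs, 11 were positive in 50% or more, led by Map4 (94.3%), Tppp3 (91.7%), Map1a (89.4%) and Dclk1 (86.4%), while Dcx, the doublecortin of immature neurons, was positive in 24.2%, Camsap3 in 38.1% and Map7d3 in 0.212%.

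Plus-end proteins, which ride on growing ends, reached 50% in 8 of 10 genes. Clasp2 (94.7%), Clip3 (93.6%), Mapre3 (91.1%), Mapre2 (87.1%) and Clasp1 (81.6%) were ahead of Clip1 and Ckap5 (both 69.1%) and Mapre1 (68.2%), and Clip4 (33.5%) and Clip2 (25.2%) were last. Of the severing enzymes, which cut the polymer, Katnal1 was positive in 59.96%, Katna1 in 28.8%, Spast in 16.7%, Fign in 16.1%, Katnal2 in 6.14%, Fignl1 in 1.69% and Fignl2 in 1.48%. Of 18 tubulin-modifying enzymes 6 reached 50%, among them the polyglutamylases Ttll7 (84.96%) and Ttll1 (70.6%), the deglutamylase Agtpbp1 (70.3%) and the deacetylase Sirt2 (66.5%), while Ttll6 was positive in 0 cells, Ttll9 in 1.48% and Ttll11 in 10.2%.

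Folding cofactors, which assemble the dimer, reached 50% in 5 of 7 genes: Arl2 (83.5%), Tbcb (79.4%), Tbca (70.3%), Tbce (63.3%) and Tbcc (53.8%), with Tbcd at 46.8% and Tbcel at 20.98%. Kinases that act on MAPs and stathmins did so in 6 of 11: Gsk3b (96.6%), Mapk10 (87.9%), Cdk5 (80.5%), its activator Cdk5r1 (68.9%), Mapk8 (65.9%) and Mark4 (53.8%), with Mark3 at 43.4%, Mark2 at 31.1%, Gsk3a at 28.2%, Mark1 at 26.5% and Cdk5r2 at 14.2%. Motors, which carry cargo along the polymer, did so in 14 of 16, led by Kif1a (95.6%), Klc1 (95.1%), Kif21a (92.2%) and Dctn1 (91.9%), with Dync1i2 (71.2%), Kif21b (44.3%) and Kif3b (36.9%) last.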

How the data were processed

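The deposited table gives, per the file headers and values, estimated counts per gene and cell for 472 cells, 55450 genes and 92 ERCC spike-ins; 1.36% of them were fractional. The submitters' processing notes name STAR 2.7.0 and mm10; no source used here names the counting tool or annotation. Library names were tied to cells by a deposited key. GENCODE mouse release 21, which holds every gene identifier, gave positions and lengths.

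Estimated counts were rounded to whole numbers and scaled to CPM over gene counts without spike-ins; a gene was positive at 10 CPM or more. Shares use all 472 cells, and 399 deep cells had at least 3000 positive genes. With 1 cell a sample and no animals named, nothing was tested. Shares carry exact Clopper-Pearson 95% intervals, which cover only error in counting cells. They treat cells as independent draws, although cells share 5 runs and an unknown number of animals. They are descriptions and do not serve as tests between groups of cells. PCR reads without molecular identifiers are also not independent molecules. Doublets were not called, as cells were picked singly. Runs come from flow cell and lane (A with 234 cells, D, E) or order number (B, C) in library names. Isotype shares used cells with a family sum of at least 10 CPM (469 for beta, 471 for alpha). Class differences and likeness were tested on simulated data.

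The 10 genes and the lists were chosen with earlier results of these data known. The text names the 10 genes, the class markers, every gene of lists of up to 14, the 4 highest and 3 lowest of longer lists, and the 3 genes most like each gene and their mean; the isotypes of both tubulin families and some cell markers were named beside them. Some results that this rule allows are not reported here. Alternatives were other thresholds, thinning, deeper cells, totals without ribosomal RNA, unrounded counts, each run left out, other pseudocounts, rank correlation and other lengths; cells with fewer than 3 amacrine markers were an alternative chosen after seeing the data. Tools were biopython 1.88, matplotlib 3.10.9, pandas 2.3.3, scipy 1.17.1, numpy 2.4.6 and Python 3.11.15.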

Additional observations from a re-analysis of the deposited data

Results flagged for a closer look

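The ERCC spike-ins, RNAs added in known amounts that enter no comparison of the report, took a median of 0.738% of all counts of a cell and at most 31.1%, far above the 5.79e-05% that 3 counts amount to at the median depth. This was picked out because it is signal outside the genes. In the 31 cells where spike-ins took over 5%, the median cell was positive for 7 of the 10 genes, against 9 in the other cells. Tubb3 was positive in 14 of the 31 (45.2%), against 93.7% of the other cells, while Map1b was positive in 30 of the 31.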

How the results depend on the processing

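No paired analysis was possible because there is 1 group and no animal is named. Tuba1a as a share of alpha-tubulin, Tubb2a as a share of the Tubb2a and Tubb2b pair (a median of 100%) and the median correlation stayed within the 95% interval of their median, over cells or over the 45 pairs, under all alternatives run. The Tubb2a share could hardly move, since Tubb2b was at 0 with Tubb2a positive in 54.7% of all cells. The interval of the median correlation was wide, 0.21 to 0.46, and its 45 pairs share genes, so staying within it says little. The median correlation was 0.23 without the ribosomal RNA loci in the total and 0.42 without run A, against 0.40. At 100 CPM the median cell was positive for 8 genes and 0.847% of cells for all 10; at 1 CPM 23.3% were. The summed level was 10475 CPM without the ribosomal RNA loci and 7570 CPM without run A. The Tubb3 share was 16.6% without run A and 22.6% with counts per length. Of 60 pairs of gene and class, 9 were past 2-fold, against 1 in cells with at least 3000 positive genes, 19 without run A, 3 without run D, 5 with a pseudocount of 10 CPM and 23 at 1.5-fold. For the run, pseudocount and 1.5-fold settings the share over all genes is not given. Single differences kept their side of 2-fold in 664 of 720 recomputed values, with 27 that no longer reached it, 29 that newly did and 0 of the called ones that changed sign. With no filter on low values, 0.458% to 6.74% of all genes were past 2-fold. Thinning to 1000000 gene counts left out 7 cells with fewer. The causes were not tested. Of cells below 10 CPM, those with 3000 or more positive genes numbered 12 for Tubb3 and 71 for Map2, and thinning left the share with all 10 genes at 16.99%.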

Other observations

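Transcript length differed between the genes most like Map2 and those most like the other 9. Among the 4296 genes compared, the 100 with the highest r to Map2 had a median longest annotated transcript of 6779 bases, against 3588 bases over all genes, and those with the highest r to the mean of the 10 genes had 2402 bases. Across genes, the Spearman correlation between r and transcript length was 0.35 for Map2 and ran from -0.40 for Tuba1a to -0.07 for Mapt among the other 9. Genes are not independent replicates, so these values are a description, and the part of transcript length in the low correlation of Map2 with the other genes was not tested.

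The annotated tubulin pseudogenes Tubb2a-ps2 and Tubb4b-ps2 were positive in 0 cells and Tubb4b-ps1 in 1.06%, at up to 94.2 CPM. These 3 loci were chosen after their values were seen.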
